A study of Mus musculus with 8 samples.

Results

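Genes that mark megakaryocytes and platelets were followed in mouse haematopoietic progenitors that received KLF7, a transcription factor of the Krüppel-like family. The 10 genes named for this purpose were Itga2b, Itgb3, Pf4, Gp1bb, Gp9, Gp6, Vwf, Mmrn1, Treml1 and Plek. A gene was taken where a probe set of the array carried its symbol and no other, which held for 8 of the 10, of 19938 genes in all. Gp1bb shares its probe set with another symbol, and it and Gp6 are not analysed here. Each of the 8 genes had a single such probe set, so no choice between probe sets was needed.

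Total RNA was measured on 4 KLF7 and 4 control arrays, each from bone marrow cells of C57Bl/6 mice. For the KLF7 arrays, cells positive for the receptor c-Kit received a lentivirus that expressed KLF7, and for the control arrays a control virus. In both groups the cells sorted 72 hours later were Lin- c-Kit+ Sca-1+ (LSK cells, which hold the stem cells and the earliest progenitors). The labels name no marker of the virus in the sort, so the share of cells that carried it is not known here. They also do not give the promoter that drives KLF7, the age of the mice, or whether each array is its own culture or mouse. The p-values therefore cover the spread among these arrays alone, and that spread may be technical. Values below are log2 of the deposited intensity, a difference of 1 is a doubling, and the number of arrays limits the precision.

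Megakaryocytes are the large marrow cells that shed platelets. They arise from stem cells and early progenitors, some of which already transcribe platelet genes at a low level. Platelets stick to a damaged vessel through the GPIb-IX-V receptor complex, which binds von Willebrand factor, and then to each other through the integrin of the αIIb chain (Itga2b) and the β3 chain (Itgb3), while their alpha granules release proteins such as platelet factor 4 (Pf4). GATA and ETS family factors are known to drive the promoters of many of these genes.

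The promoters of 3 of the genes are shown because KLF7 belongs to a family that binds CACCC and GC-rich boxes, and because these genes stand for the integrin, the granule and the GPIb-IX-V complex. Each window runs from 250 bases before to 50 bases after a start of the gene in the RefSeq table (GRCm38.p6), 5′ to 3′ on the gene's strand. That of Itga2b lies at chr11:102469834-102470133 on the minus strand, that of Pf4 at chr5:90772185-90772484 on the plus strand, and that of Gp9 at chr6:87777820-87778119 on the plus strand. The start used for Gp9 lies inside the annotated span of the gene (chr6:87776131-87779786), while those of Itga2b and Pf4 are at its edge. Capitals mark every match, on either strand, to CACCC (the KLF box), GGGCGG (the SP box), GATAA (the GATA box) or GGAAG (the core of ETS sites).
Itga2b: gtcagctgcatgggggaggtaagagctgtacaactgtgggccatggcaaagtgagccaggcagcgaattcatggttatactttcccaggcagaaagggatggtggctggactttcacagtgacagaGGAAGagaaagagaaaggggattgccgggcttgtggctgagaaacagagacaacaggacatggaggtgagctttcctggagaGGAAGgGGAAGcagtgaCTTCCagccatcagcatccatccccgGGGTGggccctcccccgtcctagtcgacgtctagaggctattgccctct
Pf4: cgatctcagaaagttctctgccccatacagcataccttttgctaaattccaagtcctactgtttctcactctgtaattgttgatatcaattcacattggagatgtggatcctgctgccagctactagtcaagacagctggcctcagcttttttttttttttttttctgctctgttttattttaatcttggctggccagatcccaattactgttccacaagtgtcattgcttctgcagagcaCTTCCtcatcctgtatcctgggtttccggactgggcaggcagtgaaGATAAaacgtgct
Gp9: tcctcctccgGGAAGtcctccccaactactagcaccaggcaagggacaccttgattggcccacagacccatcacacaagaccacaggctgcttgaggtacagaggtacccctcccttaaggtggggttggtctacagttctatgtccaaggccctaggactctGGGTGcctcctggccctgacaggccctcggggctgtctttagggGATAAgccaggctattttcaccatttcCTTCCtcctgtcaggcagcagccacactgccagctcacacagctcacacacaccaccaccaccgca
The Itga2b window held 4 ETS cores and 1 KLF box, the Pf4 window 1 ETS core and 1 GATA box, and the Gp9 window 2 ETS cores, 1 GATA box and 1 KLF box. Of the 8 genes measured, the table of promoters held 6, and Itgb3 and Vwf are named only. A KLF box lay in the windows of Itga2b, Gp9 and Plek and in none of those of Pf4, Mmrn1 and Treml1, and no SP box lay in any of the 6. Over 32851 such windows of all genes, 57.5% held a KLF box, 35.7% an SP box, 25.4% a GATA box and 71.4% an ETS core, so these letters are common and a match describes a sequence, not a bound site.

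The transduced gene checked the labels only in part. Klf7 averaged 10.80 ± 0.55 on the arrays labelled KLF7 and 9.04 ± 1.00 on those labelled control (SD, n = 4 each), but the array labelled KLF7 2 (10.19) lay below the array labelled control 2 (10.28), so every direction is that of labelled arrays. Kit, which encodes c-Kit, lay between 7.85 and 10.52 on the 8 arrays and the progenitor gene Cd34 between 9.27 and 10.95. Of the other genes among the 10 listed for LSK cells, Slamf1 (4.72), Mecom (5.07) and Procr (5.61) had the lowest averages. The rest were brighter, with averages of 6.75 for Mycn, 6.87 for Hoxa9, 7.12 for Hlf, 7.66 for Flt3 and 8.22 for Cd48. Genes listed for neutrophils ranged from dim to bright, with averages between 4.13 (Ly6g) and 11.27 (S100a8). Those listed for mast cells and basophils averaged between 7.64 and 10.98. The 8 endothelial genes averaged between 3.47 (Emcn) and 6.81 (Eng), with Cdh5 at 4.44. Of the pairs with the same number, that numbered 4 had the most genes outside the range of the other 6 arrays: 12.9% of all genes were higher on both of its arrays and 13.6% lower, against 1.38% to 4.89% higher and 1.78% to 3.71% lower for the pairs numbered 1, 2 and 3. Differences of the 8 genes between the groups are therefore also given without the arrays numbered 4.

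None of the 8 megakaryocyte and platelet genes passed the test between KLF7 and control arrays, and their group means lay within 0.45 of each other. In limma with Benjamini-Hochberg adjustment over all genes, 0 of the 8 had an adjusted p under 0.05 (smallest 0.816, Plek), as for all genes (0%). The transduced gene Klf7 did not pass this test either (difference 1.76, SE 0.46, adjusted p 0.327), so a gene that did not pass is not shown to be unchanged. At an unadjusted p under 0.05 there were also 0 of the 8, against 8.21% of all genes, and the 2 groups overlapped for all 8, where 5.22% of all genes had groups that did not overlap. With the array number as a replicate block in limma, Plek had an unadjusted p of 0.0436 and Treml1 of 0.0797. Their adjusted p there was 0.351 and 0.452, where 0.451% of all genes passed. The group mean was higher on the KLF7 arrays for 3 of the 8, Itga2b (0.03, and -0.02 after a further quantile normalization), Mmrn1 and Plek, against 50.4% of all genes, and lower for the other 5. The median difference of the 8 was -0.09, against 0.002 over all genes, and it was -0.09 without both arrays numbered 4. With single arrays left out it was -0.51 without KLF7 4, -0.25 without control 3 and -0.18 without control 1, and it turned to 0.22 without control 4, 0.13 without KLF7 1 and 0.01 without KLF7 3. In bulk RNA of a sorted fraction, fewer cells of a type and less RNA per cell cannot be told apart.

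The genes of both integrin chains had group means that nearly coincided. Itga2b, the αIIb chain or CD41, which is also found on early progenitors, lay at 8.18, 8.51, 8.48 and 8.46 on the KLF7 arrays 1 to 4 and at 8.28, 8.34, 8.10 and 8.79 on the control arrays 1 to 4. The control arrays held both the highest and the lowest value. The difference was 0.03 (SE 0.19, 95% interval -0.40 to 0.46, limma adjusted p 0.992), and it was 0.15 without the arrays numbered 4. Itgb3, the β3 chain, lay at 7.31, 7.75, 7.73 and 9.23 on the KLF7 arrays and at 7.76, 7.95, 7.41 and 9.18 on the control arrays. In each group 1 array, that numbered 4, was well above the other 3, which overlapped between the groups. The difference was -0.07 (SE 0.45, 95% interval -1.08 to 0.93, limma adjusted p 0.991), and without the arrays numbered 4 it was -0.12 (SE 0.22).

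Gp9 encodes glycoprotein IX, the small subunit that the GPIb-IX-V complex needs to reach the surface. It lay at 6.50, 7.37, 6.17 and 8.06 on the KLF7 arrays and at 7.49, 6.55, 6.92 and 8.90 on the control arrays. The arrays numbered 4 were again the highest of each group. Its difference of -0.44 (SE 0.52, 95% interval -1.60 to 0.72, limma adjusted p 0.931) was the lowest of the 8, it was -0.31 without the arrays numbered 4, and it was 0.04 without the array labelled control 4.

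Granule genes varied more between arrays of a group than between the groups. Pf4, a chemokine of the alpha granules, lay at 8.91, 10.67, 8.90 and 11.18 on the KLF7 arrays and at 9.60, 9.64, 9.70 and 11.36 on the control arrays. On the KLF7 side the arrays numbered 2 and 4 were high, and on the control side only the array numbered 4. The difference was -0.16 (SE 0.57, 95% interval -1.43 to 1.10, limma adjusted p 0.979), and it was -0.15 without the arrays numbered 4. Mmrn1, multimerin, which binds coagulation factor V in the granules and is also made by endothelium, lay at 4.68, 6.03, 4.51 and 7.52 on the KLF7 arrays and at 4.93, 5.28, 5.21 and 7.01 on the control arrays. It showed the same order on the KLF7 side, with arrays 4 and 2 above arrays 1 and 3. Its difference of 0.07 (SE 0.65, 95% interval -1.36 to 1.51, limma adjusted p 0.994) turned to -0.07 without the arrays numbered 4.

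Vwf and Treml1 completed the granule genes. Vwf, von Willebrand factor, made by megakaryocytes and endothelium and known from a platelet-biased class of stem cells, lay at 6.90, 7.26, 7.02 and 7.22 on the KLF7 arrays and at 6.93, 7.26, 6.84 and 7.77 on the control arrays. Apart from the array labelled control 4, the groups covered nearly the same range. The difference was -0.10 (SE 0.22, 95% interval -0.58 to 0.38, limma adjusted p 0.963), and it was 0.05 without the arrays numbered 4. Treml1, a receptor of alpha granules that reaches the surface of activated platelets, lay at 6.66, 7.23, 6.96 and 8.36 on the KLF7 arrays and at 6.89, 7.42, 7.22 and 8.86 on the control arrays. Each KLF7 array lay below the control array of the same number, while the groups overlapped. The difference was -0.30 (SE 0.45, 95% interval -1.30 to 0.71, limma adjusted p 0.944), and it was -0.23 without the arrays numbered 4.

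Plek had the highest difference of the 8. It encodes pleckstrin, the main substrate of protein kinase C in platelets, which other white blood cells also make. It lay at 10.74, 9.57, 9.45 and 9.75 on the KLF7 arrays and at 9.86, 9.06, 8.91 and 9.87 on the control arrays. The array labelled KLF7 1 stood above all others, and the other 3 KLF7 arrays lay within the range of the control arrays. The difference was 0.45 (SE 0.33, 95% interval -0.28 to 1.18, limma adjusted p 0.816). This value was 0.16 when KLF7 1 was left out, 0.28 without control 3 and 0.64 without the arrays numbered 4.

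**Figure D1:**
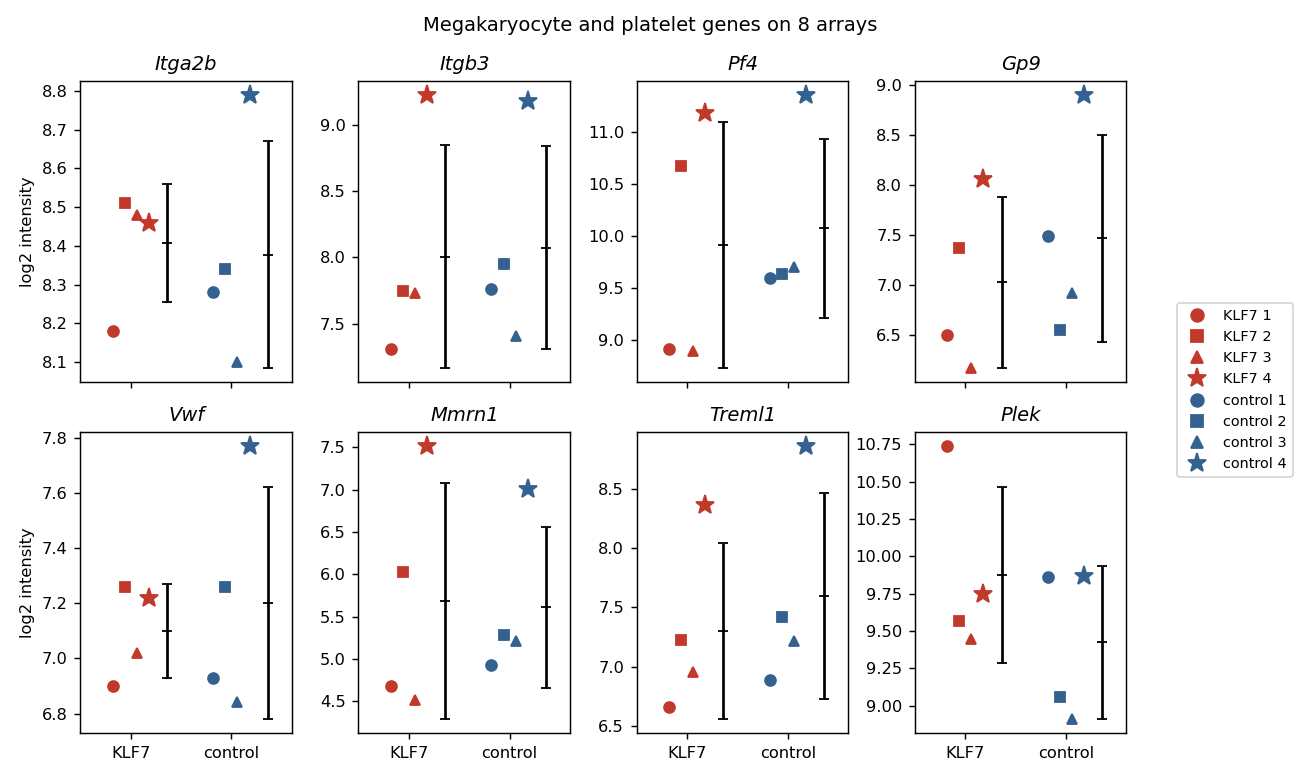
Log2 intensity of the 8 genes on each array, KLF7 (red) left of control (blue), with a symbol for each array number and a mean with SD (n = 4) beside each group; the vertical scale differs between panels. The stars, the arrays numbered 4, lie above the other arrays of both groups for Itgb3, Pf4, Gp9, Mmrn1 and Treml1, and the groups overlap in every panel.

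Arrays of the same number were then set against each other, KLF7 minus control. For Treml1 the differences were -0.24, -0.18, -0.26 and -0.50 for the numbers 1 to 4, all below 0. The share of all genes with every difference on 1 side was not counted, so this is not shown to be particular to Treml1. For Plek they were 0.88, 0.51, 0.53 and -0.12, and for Gp9 -0.99, 0.82, -0.75 and -0.84, so 1 number went the other way for each. Pf4 had -0.69, 1.02, -0.79 and -0.19, and Mmrn1 -0.25, 0.74, -0.71 and 0.51. The number 2 gave the highest value for Pf4, Gp9 and Mmrn1 alike. Itgb3 (-0.46, -0.20, 0.32 and 0.05), Itga2b (-0.10, 0.17, 0.38 and -0.33) and Vwf (-0.03, 0.00, 0.18 and -0.55) had values on both sides of 0. The labels do not say what a shared number marks.

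**Figure D2:**
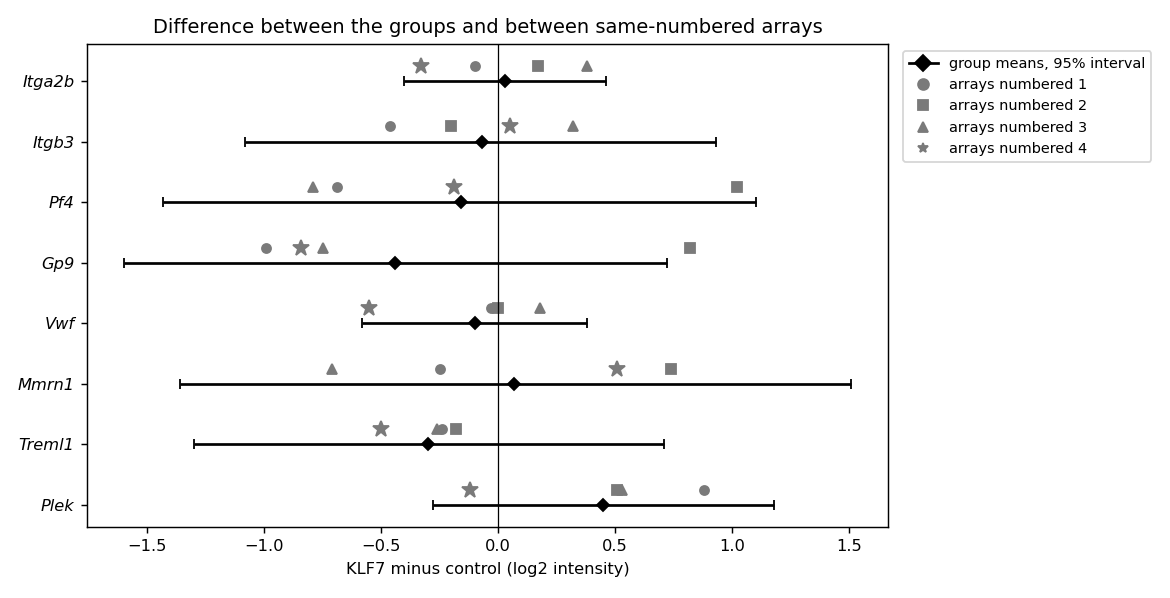
Difference KLF7 minus control in log2 intensity for the 8 genes: diamonds give the difference of group means with its 95% interval from limma, and grey symbols the differences between arrays of the same number. Every interval includes 0, and of the 8 genes only Treml1 has its 4 grey symbols all on one side. The share of all genes with this was not counted.

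Several of these genes differed with the number of the array. Treml1, Mmrn1 and Itgb3 differed between array numbers in a limma fit with group and number (F test of the number, adjusted p 0.00985, 0.012 and 0.0209, Benjamini-Hochberg over all genes), which is 3 of the 8 against 2.20% of all genes. Pf4 (adjusted p 0.0647), Gp9 (0.0905), Plek (0.138), Vwf (0.364) and Itga2b (0.686) did not pass. At an unadjusted p under 0.05, 6 of the 8 differed between numbers, against 18.2% of all genes. This test was chosen after the data were seen. It called 0 of the 8 without the array labelled KLF7 4 (0.502% of all genes), without control 4 (0.171%) or without both (0.0502%). It called 5 without KLF7 2 (6.99% of all genes) or without control 2 (6.39%), and 6 without both arrays numbered 2 (9.31%), so the share of all genes moved with the count.

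The arrays numbered 4 were the high ones. Mmrn1 lay at 7.52 and 7.01 on the arrays KLF7 4 and control 4, against 4.51 to 6.03 on the other 6. With a term for group, its difference between the arrays numbered 4 and the others was 2.16 (SE 0.34, 4.47-fold). The same difference was 1.70 (SE 0.40, 3.25-fold) for Pf4, 1.64 (SE 0.33) for Gp9, 1.55 (SE 0.20) for Itgb3 and 1.54 (SE 0.21) for Treml1. Both arrays numbered 4 lay above all 6 others for these 5 genes, against 12.9% of all genes. Within the groups, the array KLF7 4 lay above the mean of the other KLF7 arrays by 2.45 for Mmrn1, 1.69 for Pf4, 1.64 for Itgb3, 1.41 for Treml1 and 1.38 for Gp9. The array control 4 lay above the mean of the other controls by 1.87 for Mmrn1, 1.72 for Pf4, 1.47 for Itgb3, 1.68 for Treml1 and 1.91 for Gp9. Whether these steps differ between the groups was not tested. The other 3 genes had smaller differences, with 0.46 (SE 0.20) for Vwf, 0.31 (SE 0.19) for Itga2b and 0.21 (SE 0.37) for Plek. For Itga2b and Vwf the array control 4 was 0.55 and 0.76 above the other controls and KLF7 4 only 0.07 and 0.16 above the other KLF7 arrays. The median of all genes was -0.025 on this scale. Over the alternative scalings and with arrays left out, the difference stayed between 1.87 and 2.45 for Mmrn1, 1.45 and 1.99 for Pf4, 1.38 and 1.91 for Gp9, 1.33 and 1.65 for Itgb3 and 1.35 and 1.68 for Treml1. It ran from 0.16 to 0.76 for Vwf, from 0.07 to 0.55 for Itga2b and from -0.17 to 0.59 for Plek, which changed direction.

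**Figure D3:**
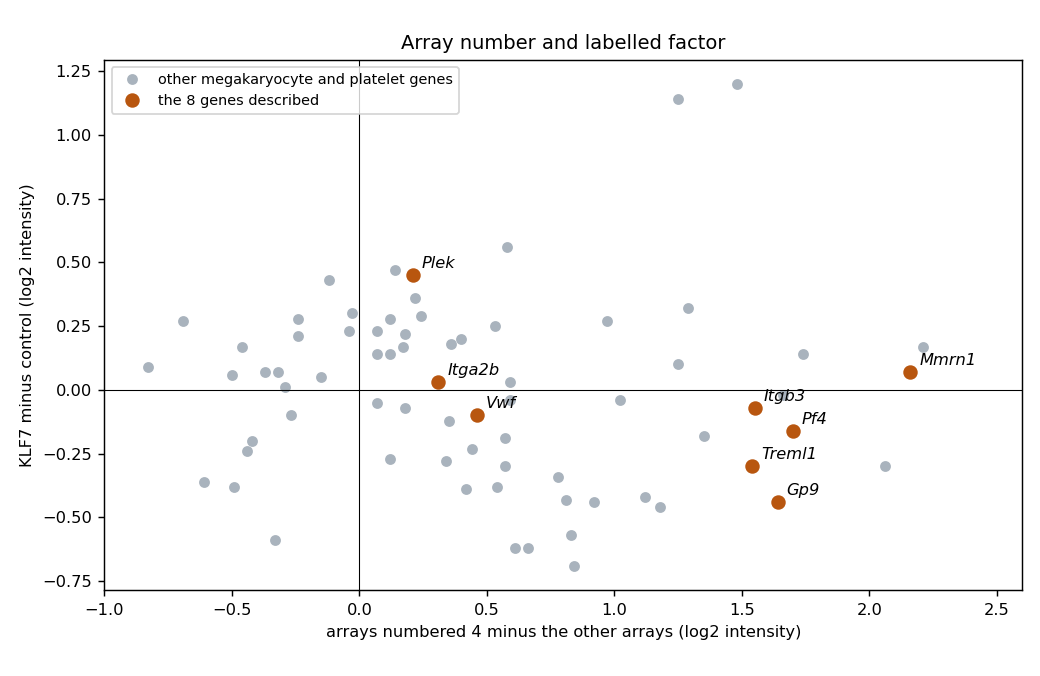
Difference between the arrays numbered 4 and the other arrays (horizontal, log2 intensity) and KLF7 minus control (vertical, log2 intensity) for the 8 genes (orange) and 64 other megakaryocyte and platelet genes (grey). Mmrn1, Pf4, Gp9, Itgb3 and Treml1 lie between 1.54 and 2.16 on the horizontal axis, and the 8 genes lie between -0.44 and 0.45 on the vertical axis.

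Other genes of the megakaryocyte and platelet programme were taken from lists by role, of which 64 of 70 were measured. Between KLF7 and control arrays, 34 had a higher and 30 a lower mean, with a median of 0.04. In limma 0 passed after adjustment over all genes, and 5 had an unadjusted p under 0.05, 4 of them higher (4.65% of all genes) and 1 lower (3.56% of all genes). The 4 higher ones were F11r, which encodes the junctional adhesion molecule JAM-A (1.20, SE 0.44), Cd9, a tetraspanin of platelets and of many other cells (1.14, SE 0.39), Flna, filamin A (0.47, SE 0.18), and Fcer1g, the signalling chain that partners glycoprotein VI (0.43, SE 0.18). The limma adjusted p of these 4 was 0.481, 0.459, 0.524 and 0.565, and Fcer1g was named after its values were seen. F11r lay at 7.52, 6.93, 6.75 and 8.52 on the KLF7 arrays and at 5.92, 5.89, 5.75 and 7.35 on the control arrays. For all 4 genes each KLF7 array lay above the control array of the same number. The differences were 1.00 to 1.61 for F11r, 0.74 to 1.57 for Cd9, 0.07 to 0.75 for Flna and 0.23 to 0.59 for Fcer1g. The share of all genes with 1 direction for every number was not counted. With a batch term for the arrays numbered 4, F11r passed in limma over all genes (adjusted p 0.0428) and Cd9 did not (0.0732). With the array number as a replicate block both passed (0.0291 and 0.0403), and without both arrays numbered 4 neither did (0.191 and 0.193, differences 1.22 and 1.28).

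Of 12 transcription factors of the lineage, 8 averaged lower on the KLF7 arrays (median -0.24), and none passed the test. Gfi1b, a repressor that erythroid cells and megakaryocytes need, was the 1 lower gene at an unadjusted p under 0.05 (-0.69, SE 0.31, limma adjusted p 0.608), at 7.37, 7.97, 8.13 and 8.47 on the KLF7 arrays and 8.17, 8.72, 8.36 and 9.45 on the control arrays. Nfe2, needed for platelet release, was at -0.62 (SE 0.38), the helix-loop-helix factor gene Lyl1 at -0.59 (SE 0.29) and Gata1, a master factor of the lineage, at 0.25 (SE 0.20). Of 13 granule proteins and enzymes, 8 averaged lower (median -0.30), among them Ltbp1, a carrier of latent TGF-beta (-0.57, SE 0.30), F5, coagulation factor V (-0.38, SE 0.23), and Ppbp, a platelet chemokine gene (-0.30, SE 0.66, and 0.25 without control 4, 0.09 without KLF7 3 and 0.07 with array weights). Of 13 adhesion receptors 9 had a higher mean (median 0.17), of 8 activation receptors 4 (median -0.02, with the ADP receptor gene P2ry12 at 0.20, SE 0.17, and the thrombin receptor gene F2rl3 at -0.43, SE 0.46), and of 18 signalling and cytoskeletal genes 12 (median 0.09, with Rasgrp2, an activator of the integrin switch Rap1, at -0.62, SE 0.30).

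By array number, the same lists held genes that were high on the arrays numbered 4 and genes that were not. Of the 64, 8 differed between numbers (limma F test, adjusted p under 0.05), against 2.20% of all genes, and 17 were higher on both arrays numbered 4 than on any other array, against 12.9%. The 8 were Clec1b, the podoplanin receptor of platelets (2.21 between the arrays numbered 4 and the others), Cd151 (1.74), Mef2c (1.66), F11r (1.48), Esam (1.29), Bin2 (1.25), Alox12 (1.18) and Cd36 (0.58, SE 0.69), 7 of them named after their values were seen. Cd36, a scavenger receptor, was highest not on the arrays numbered 4 (6.13 and 5.45) but on those numbered 1 (7.17 and 6.23). Ppbp lay at 11.63 and 12.18 on the arrays KLF7 4 and control 4, against 9.02 to 10.88 on the others (2.06, adjusted p 0.074 in the F test). Thbs1, thrombospondin, and Srgn, serglycin, which many myeloid cells also make, were at -0.61 and -0.83 on the same scale and were named after their values were seen.

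Markers of other cells moved with the arrays numbered 4 as well. All 8 mast cell and basophil genes were lower on both arrays numbered 4 than on any other array, where 13.6% of all genes were. The mean level of the list was 6.78 and 6.48 on the arrays KLF7 4 and control 4, against 9.10 to 10.37 on the others. Mcpt8, a protease gene of basophils, lay at 7.91 and 6.98 there, against 9.79 to 10.96. Of 8 neutrophil genes, 4 were lower on both, with a list level of 7.09 and 7.16 against 7.65 to 9.09. Mmp8 of that list went the other way, at 10.14 and 9.67 on the arrays KLF7 4 and control 4 (1.67, SE 0.61, between the arrays numbered 4 and the others). Ltf and Camp were highest on the arrays numbered 3. Kit lay at 7.85 and 8.33 on the arrays numbered 4, against 9.57 to 10.52 on the others (limma F test of the number, adjusted p 0.0319). It was the 1 of 10 LSK genes that was lower on both, while 5 of the 10 were higher on both, with a median of 0.78 between the arrays numbered 4 and the others. Flt3 was at 1.27 and Cd34 at 0.90 on that scale. The 8 genes described here had list levels of 8.72 and 8.97 on the arrays KLF7 4 and control 4, against 7.40 to 8.05. The mean of the erythroid list was 5.19 and 5.09 against 5.18 to 5.97, and that of the endothelial list 5.30 and 5.54 against 4.82 to 5.22. The part of these cells in the levels of the platelet genes was not tested.

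**Figure D4:**
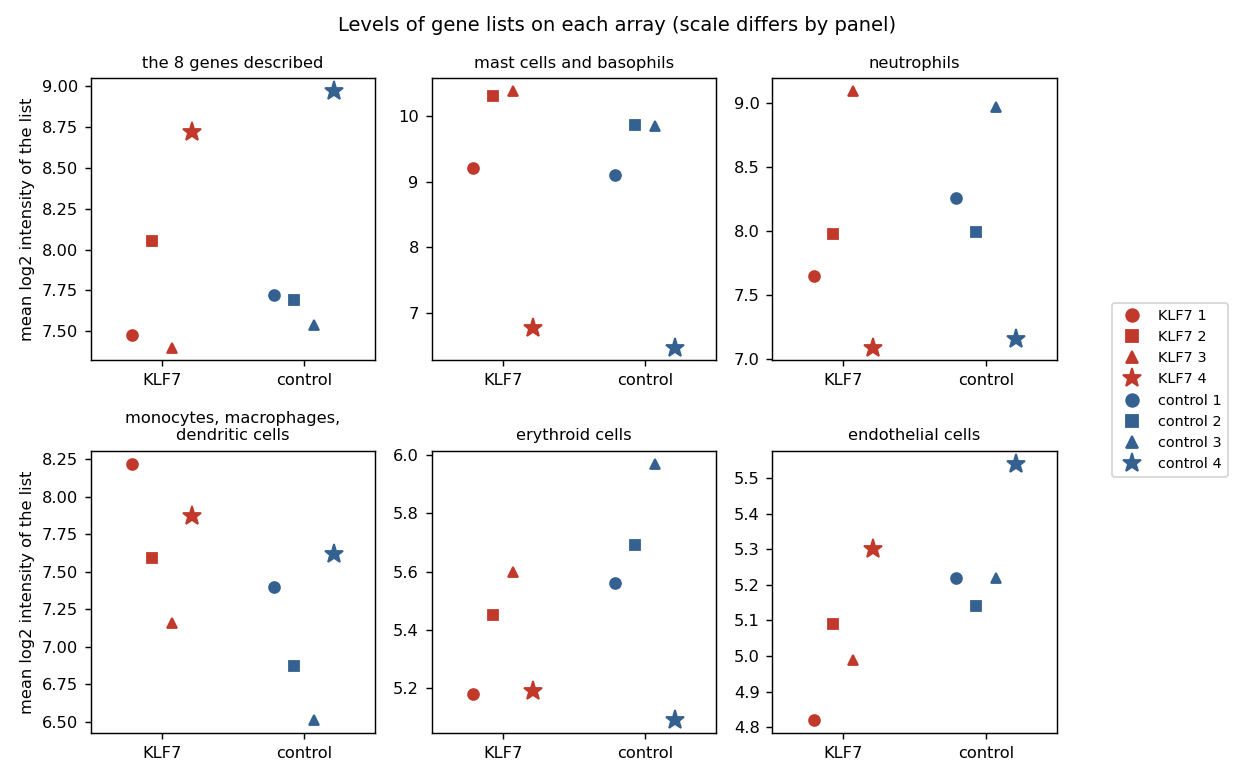
Mean log2 intensity of 6 gene lists on each array, KLF7 (red) left of control (blue), with a symbol for each array number and a vertical scale that differs between panels. The stars, the arrays numbered 4, lie highest in both groups for the 8 platelet genes and for the endothelial genes. They lie lowest in both groups for the mast cell and basophil genes and for the neutrophil genes.

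Plek was set beside the 10 genes of monocytes, macrophages and dendritic cells because leukocytes make pleckstrin as well. The mean level of those genes was 8.22, 7.59, 7.16 and 7.87 on the KLF7 arrays 1 to 4 and 7.40, 6.87, 6.51 and 7.62 on the control arrays 1 to 4. Within each group the 4 arrays stood in the same order for Plek and for this list, and the share of all genes with that order was not counted. The array labelled KLF7 1 was the highest of all 8 for both, and the array labelled control 3 the lowest. Of the 10 genes, 9 averaged higher on the KLF7 arrays (median difference 0.49). Their part in the level of Plek was not tested.

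**Figure D5:**
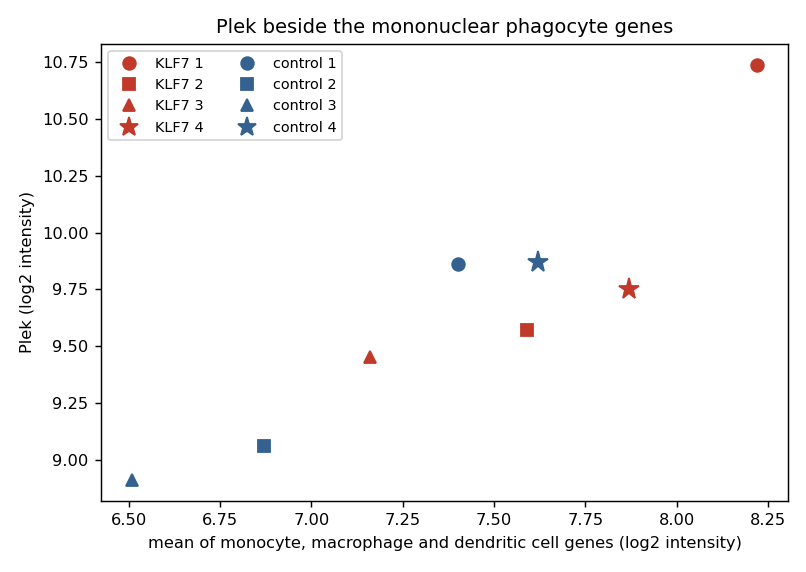
Plek (vertical) against the mean of 10 monocyte, macrophage and dendritic cell genes (horizontal), both in log2 intensity, with a point for each of the 8 arrays. Plek and the list are both lowest on the array control 3 (8.91 and 6.51) and highest on KLF7 1 (10.74 and 8.22).

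The genes most like Itga2b, Pf4 and Vwf over the 8 arrays were taken by the mean absolute difference between log2 values, after each gene's own mean was subtracted. For Pf4 they were Selenoh, which encodes a selenoprotein of the nucleus (mean absolute difference 0.13), Ddt, D-dopachrome tautomerase (0.15), and Tomm5, a subunit of the mitochondrial import pore (0.16). As they were chosen for this likeness, all 3 shared the high values of Pf4 on the arrays numbered 4 and on KLF7 2. Selenoh lay at 7.41, 8.88, 7.25 and 9.45 on the KLF7 arrays and at 7.80, 7.69, 8.13 and 9.38 on the control arrays. For Itga2b the nearest were Fbxo2 (0.05), Olfr853 (0.05) and Nab2 (0.06), and for Vwf they were Ctdp1 (0.06), Fzd6 (0.06) and Prkg1 (0.08). Fbxo2 (4.72 to 5.31) and Olfr853 (2.53 to 3.17) were dim on all 8 arrays. Itga2b and Vwf varied less than Pf4 (SD of the KLF7 arrays 0.15 and 0.17 against 1.18, of the control arrays 0.29 and 0.42 against 0.86). The size of these distances therefore cannot be compared between the 3 genes.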

How the data were processed

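The deposited intensities were made by the authors by RMA (Affymetrix Expression Console), as the submitters' processing notes record. Their versions and a build are not given in the sources here. They ran from 2.20 to 15393, so log2 was taken. Array medians lay between 46.2 and 54.1. Of 35554 probe sets, 21789 had 1 symbol in the platform annotation, 1621 several (unnamed here) and 12144 none. RefSeq (GRCm38.p6) matched 21698 by Entrez number and changed 0 symbols. The probe set with the highest mean was kept per gene (19938 genes, no filter).

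Group was fitted in limma 3.58.1 (R 4.3.3; lmFit, eBayes with trend) over all genes, two-sided, threshold 0.05 after Benjamini-Hochberg adjustment. The fit was tested on simulated data. The genes and lists were chosen with earlier results of these data known. Named genes were the 10 genes, Klf7, up to 2 per list by smallest p, Gata1, Nfe2 and Ppbp, and the 3 nearest to Itga2b, Pf4 and Vwf; cell type markers were named after their values were seen. Alternatives left out arrays or changed normalization, weights, prior, filter, probe sets, block or batch term. Figures used matplotlib 3.10.9.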

Additional observations from a re-analysis of the deposited data

Results flagged for a closer look

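In 3 of 16 groups of 4 arrays (the 8 genes in 2 groups), 1 array stood far from the other 3. Chance gives about 1 in 20 for independent groups, but these groups share arrays. The share over all genes was not counted, so the 3 are not shown to be particular to these genes. Itga2b was at 8.18 on the array labelled KLF7 1, against 8.46 to 8.51 on the other KLF7 arrays. Pf4 was at 11.36 on the array labelled control 4, against 9.60 to 9.70 on the other controls. Mmrn1 was at 7.01 on the array labelled control 4, against 4.93 to 5.28 on the other controls.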

How the results depend on the processing

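Of 159 values of the 8 genes under 20 alternatives, 134 kept their direction and 25 turned, and 0 passed the threshold in limma (smallest adjusted p 0.351, Plek with the replicate block). Left out one at a time, the 8 arrays moved the differences to between -0.06 and 0.17 for Itga2b, -0.48 and 0.29 for Itgb3, -0.58 and 0.27 for Pf4, -0.78 and 0.04 for Gp9, -0.22 and 0.09 for Vwf, -0.54 and 0.54 for Mmrn1, and -0.65 and 0.12 for Treml1. Without KLF7 1, Itgb3 was 0.16 and Pf4 0.17, without KLF7 2 Itga2b was -0.01, Itgb3 0.01 and Mmrn1 -0.04, and without KLF7 3 Itgb3 was 0.02 and Pf4 0.18. Mmrn1 was -0.15 without control 1, -0.03 without control 2 and -0.06 without control 3, and Itga2b was -0.01 without control 1 and -0.06 without control 3. Without control 4, Itgb3 was 0.29, Pf4 0.27, Gp9 0.04, Vwf 0.09 and Treml1 0.12. With quantile normalization applied again Itga2b was -0.02, with array weights Pf4 was 0.17 and Vwf 0.05, without both arrays numbered 4 Vwf was 0.05 and Mmrn1 -0.07, and without both numbered 2 Itga2b was -0.02 and Mmrn1 -0.15. Of 14 list genes named, Ppbp turned to 0.09 without KLF7 3, 0.25 without control 4 and 0.07 with array weights, and F2rl3 to 0.03 with array weights and 0.00 without both arrays numbered 4. The causes were not tested.

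Over all genes 0 were called, against 0 to 1 with single arrays left out (1 without KLF7 3 and 1 without control 4), 26 when a batch term marked the arrays numbered 4 and 90 with the array number as a replicate block. Of the 64 other genes, 2 passed under the block, Cd9 and F11r (limma adjusted p 0.0403 and 0.0291). Deviations of same-numbered arrays from their group means correlated across genes at 0.35, -0.126, 0.362 and 0.699 for the numbers 1 to 4. As the number 2 is below 0, the numbers were not taken to pair the arrays. Arrays of different numbers correlated at -0.558 to 0.319, below the values of the numbers 1, 3 and 4. With the number as a replicate block, the SE was smaller than with group alone for several of the 8 genes. It was 0.23 against 0.65 for Mmrn1, 0.18 against 0.45 for Itgb3 and 0.15 against 0.45 for Treml1, but 0.18 against 0.19 for Itga2b. The count of the 8 genes that differ between array numbers, 3, lay between 0 and 5 with single arrays left out, at 5 with array weights, at 6 without both arrays numbered 2 and at 0 without both numbered 4. Over all genes this test called 438, against 34 to 1394 with single arrays left out, 701 with array weights, 1857 without both arrays numbered 2 and 10 without both numbered 4. The median difference of the 8 lay between -0.51 and 0.22 with single arrays left out and that of the other 64 between -0.05 and 0.09, so the sign of each depended on single arrays. The mean level of the 8 had an SD of 0.64 between arrays of a group, which does not measure the error of a median difference. Signal over background was not given, so whether a dim gene such as Mmrn1 is detected is not known.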
